A study of Mus musculus with 40 samples.

Results

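The mRNA of 11 glioma cell lines was compared with that of 11 gliomas from p53 R172H CKO mice on Affymetrix mouse genome arrays. These 22 samples were taken from the 40 arrays of the series by sample title and genotype, with the 2 lines titled early biopsy kept apart, and 1 array was hybridised for each sample. Both groups carried the genotype hGFAP-cre+;p53LSLR172H/floxE2-10. In this genotype a Cre recombinase under the human GFAP promoter acts in neural cells, where it activates a missense p53 allele and deletes the other p53 allele. The lines were grown from dissected tumors in serum-free neural stem cell medium with EGF, bFGF, N2 and B27 supplements. The gliomas were pieces of tumor, in which blood vessels, immune cells and other cells without recombination remain. The labels give no age, batch or date, and they do not tell which line was grown from which tumor, although the study describes lines and tumors as pairs. Array numbers of gliomas and lines mostly alternate, and this order was not taken as a pairing. The groups were therefore compared unpaired, and their p-values reflect only the spread among these arrays. A line or glioma is named by the array number in its label. The remaining arrays held 11 p53-null gliomas, 5 normal cortices and the 2 early biopsy lines (arrays 66 and 69).

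A malignant glioma in the brain is a mixture of tumor cells with resident microglia, macrophages recruited from blood, endothelial cells, pericytes, and neurons and glia of the tissue that the tumor invades. Neural stem cell medium favours cells that divide in response to growth factors, and it contains no serum, the usual source of lipoproteins in culture. The sterol genes are controlled by SREBP transcription factors, which are released from the endoplasmic reticulum when sterols are scarce. Genes of the interferon response and of antigen presentation are switched on by interferons, which immune cells and injured cells secrete.

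Values are log2 signals, and each difference is the mean of the 11 lines minus the mean of the 11 gliomas. A limma model of all 40 arrays was fitted, and the threshold for passing was a p of 0.05 after Benjamini-Hochberg adjustment. Of 18193 genes, 1317 (7.24%) were higher and 1170 (6.43%) were lower in the lines, together 13.7%. The decreases were larger than the increases. The median difference of the genes that passed was 0.61 for the higher genes and -1.34 for the lower ones, 84 genes were lower by at least 3 on the log2 scale and 0 were higher by as much. At least 2-fold changes were found for 225 higher (1.24%) and 783 lower genes (4.3%). All 11 lines lay above all 11 gliomas for 17 genes (0.0934%) and below them for 164 genes (0.901%). For 645 of the 1170 lower genes the mean of the lines did not exceed the highest array median (5.47). Signals at that level do not separate weak expression from none, so those differences are lower bounds. The median of all genes was 0.05. It was 0.00 with cyclic loess normalization and 0.19 with arrays centred on their medians, and the share of higher genes among the genes that passed was 53%, 40.9% (935 higher, 1349 lower) and 79.3% (3851 higher, 1007 lower). A filter on dim genes gave 60.1% (818 higher, 543 lower).

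**Figure D1:**
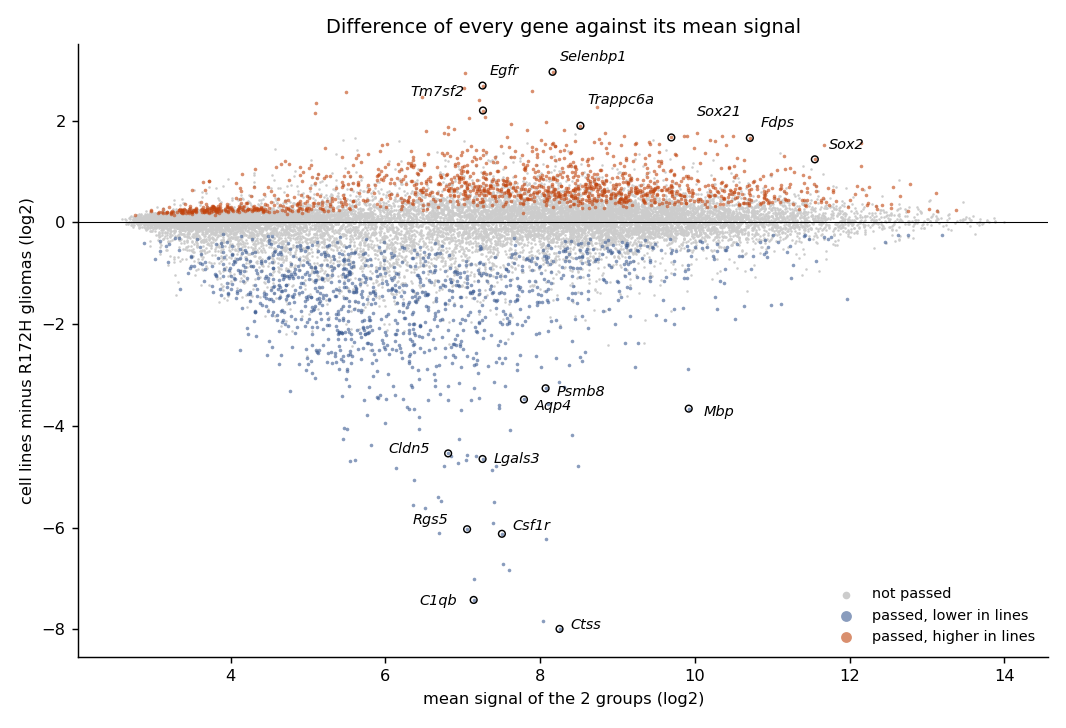
Difference between the mean of 11 cell lines and the mean of 11 R172H gliomas (log2, vertical axis) against the mean log2 signal over both groups (horizontal axis), 1 point for each of 18193 genes, with the genes that passed in colour. The lower genes reach -7.99 while no higher gene exceeds 2.96.

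The correlation of single arrays across all probe sets except controls was 0.936 to 0.975 among lines and 0.853 to 0.974 among gliomas. The gliomas varied more, with a larger SD than the lines for 67% of genes (median SD 0.43 against 0.33). Gliomas 50 and 58 stood apart from their group. Glioma 58 had a median correlation of 0.892 with the other gliomas and 0.976 with normal cortex, and the medians of glioma 50 were 0.913 with the other gliomas, 0.916 with the lines and 0.848 with cortex. Without both, 1244 genes were higher and 1173 lower. The study reports that histology found normal tissue contamination in an R172H primary tumor of its expression data. The labels do not tell which array held that tumor.

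Genes of the immune cells of the tumor lay far lower in the lines. All 22 measured genes of microglia and macrophages were lower in the lines, with a median difference of -4.01, and for 15 of them the groups did not overlap. Over all genes, 6.43% were lower and 0.901% were lower without overlap. The list members Trem2 and Laptm5 did not pass in every setting, as their adjusted p reached 0.288 and 0.58 over 12 other settings. Ctss, a lysosomal cysteine protease, lay at 3.69 to 6.84 (median 3.97) in the lines and at 11.15 to 13.40 (median 12.31) in the gliomas. No line came near a glioma for Ctss, and the brightest line was 63, with the other lines at or below 4.35. The difference was -7.99 (standard error 0.27, adjusted p = 2.55e-23), a 255-fold lower signal. Csf1r, the receptor on which microglia depend for survival, lay at 3.99 to 5.14 (median 4.36) in the lines and at 9.0 to 12.03 (median 10.62) in the gliomas. Its groups were fully apart, at a difference of -6.12 (standard error 0.28, adjusted p = 2.28e-19). The complement genes C1qa, C1qb and C1qc (-6.83, -7.42 and -6.10), the signalling adaptor Tyrobp (-6.72), the pan-leukocyte phosphatase Ptprc (-4.37) and the microglial chemokine receptor Cx3cr1 (-3.38) were apart in the same way. In bulk samples, fewer cells of a type and less RNA per cell cannot be told apart.

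The gliomas also differed among themselves in these genes. Their microglia and macrophage score, which is the median over the list of the differences of an array from the mean of the gliomas, ran from -1.0 in glioma 50 to 1.31 in glioma 60, and that of the lines from -4.36 to -3.25. Line 63 had the highest score of the lines, with Ctss at 6.84, Lyz2, a lysozyme of myeloid cells, at 7.55 and the Fc receptor chain Fcer1g at 6.52. P2ry12, a purine receptor of resident microglia, was 3.78 in glioma 50, within the range of the lines (3.33 to 5.05), and 5.43 to 9.23 in the other gliomas. The mean signal over the 22 genes was 4.14 to 4.84 in the lines and 7.79 to 9.86 in the gliomas, and 20 of the 22 genes had a line mean no higher than the array medians.

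Of 17 genes of lymphocytes and granulocytes, 2 were lower (11.8%, against 6.43% of all genes) and none was higher, with a median of -0.03 (0.11 with centred arrays). These were S100a8 (-1.77) and S100a9 (-1.38), which encode the calprotectin of neutrophils, and the count was 1 without glioma 48, 54, 60 or 67, which is about the share over all genes. For 15 of the 17 genes the mean of both groups was no higher than the array medians. Of 6 blood genes, the platelet chemokine Pf4 was lower (-1.40), and a second gene passed without glioma 46, 50, 52 or 58. Igha and Jchain, the heavy chain and the joining chain of secreted IgA, were chosen after their values were seen and were lower by -4.58 and -3.43, with Jchain at 4.87 to 10.11 in the gliomas and at 3.75 to 4.76 in the lines.

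Chemokine and complement genes followed the same direction. Of 23 genes of chemokines and cytokines, 8 were lower (34.8%, against 6.43% of all genes) and none was higher (median -0.52). The macrophage chemokines Ccl6 (-3.63), Ccl12 (-3.42), Ccl9 (-1.89) and Ccl3 (-1.81) had no overlap between groups, and Cxcl16, Tgfb1, Il1a and Il1b were lower by 1.36, 1.22, 0.81 and 0.50 on the log2 scale. Of 14 genes of complement and coagulation, 6 were lower (42.9%) and 1 was higher (7.14%), with a median of -0.53. The higher share was about that of all genes (7.24%). Vtn, the adhesive plasma protein vitronectin that pericytes express in brain, was lower by 3.78, the complement inhibitor Serping1 by 2.51 and the anaphylatoxin receptor C3ar1 by 2.35. The exception was Plat, tissue plasminogen activator, which was higher by 0.90 (adjusted p = 0.049, 0.00992 to 0.164 over 12 other settings).

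The genes of blood vessels were also lower in the lines. Of 17 endothelial genes, 15 were lower (88.2%) and none was higher (median -1.32). Of 16 genes of pericytes and fibroblasts, 8 were lower (50%) and none was higher (median -1.61). The share of lower genes over all genes was 6.43%. Cldn5, the tight junction claudin of the blood-brain barrier, lay at 3.98 to 4.85 (median 4.67) in the lines and at 8.11 to 10.09 (median 8.90) in the gliomas. The groups were apart by more than 3 log2 units at their nearest arrays, with a difference of -4.54 (standard error 0.21, adjusted p = 2.19e-19). Rgs5, a regulator of G protein signalling of brain pericytes, lay at 2.94 to 5.32 (median 3.94) in the lines and at 8.86 to 11.08 (median 10.12) in the gliomas, a difference of -6.03 (standard error 0.25, adjusted p = 8.98e-21). All 11 lines scored below all 11 gliomas for both lists, at -1.68 to -1.20 against -0.77 to 0.70 for endothelial cells and at -2.48 to -0.86 against -0.59 to 0.79 for pericytes and fibroblasts.

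Some genes of the vessel lists reached the range of the gliomas in single lines. Flt1, a VEGF receptor, was 7.52 in line 65 and 6.35 in line 57, within the range of the gliomas (6.03 to 8.53). Pdgfrb, the PDGF receptor of pericytes, was 6.97 in line 63 and 2.76 to 5.58 in the other lines, against 6.09 to 9.26 in the gliomas. The contractile genes Tagln (-1.22, adjusted p = 0.0687) and Acta2 (-0.98, adjusted p = 0.132) did not pass, and Tagln was 9.19 in line 59, above the highest glioma (9.08). Itm2a, a membrane protein of vessels, did not pass at -0.91 (95% interval -2.12 to 0.29).

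Markers of the normal brain cells were lower in fewer members, and their signals varied widely among the gliomas. Of 26 genes of mature neurons, 6 were lower (23.1%, against 6.43% of all genes) and none was higher (median -1.39). Snap25, a protein of synaptic vesicle release, lay at 3.46 to 8.29 (median 4.88) in the lines and at 5.62 to 13.53 (median 8.90) in the gliomas. The groups overlapped, and the difference was -3.59 (standard error 0.84, adjusted p = 0.00302). Vsnl1 (-2.90), Stmn2 (-2.77), Syp (-2.09), Scn2a (-1.95) and the glutamate receptor Gria2 (-0.96) also passed. The neuron score reached 3.66 in glioma 58, 1.93 in glioma 60 and 1.06 in glioma 48, was -1.58 to 0.00 in the other gliomas and -2.03 to -0.80 in the lines. The count of 6 was 2 without glioma 48, 58 or 60 and 3 without line 57, 65 or 68.

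Of 14 genes of mature oligodendrocytes, 6 were lower (42.9%, against 6.43% of all genes) and none was higher (median -1.26). The myelin genes Mobp (-4.06, adjusted p = 0.000806), Mbp (-3.66), Mag (-1.94), Mal (-1.87) and Cldn11 (-2.33) and the galactolipid enzyme Ugt8a (-2.36) passed. Mbp, myelin basic protein, lay at 4.69 to 12.56 (median 9.06) in the lines and at 7.63 to 13.45 (median 12.15) in the gliomas. Its groups overlapped widely, as lines 65 (12.56), 57 (11.32) and 47 (10.36) were brighter than gliomas 50 (7.63) and 54 (8.82).

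Astrocyte genes went in both directions. Of 17 genes, 2 were higher (11.8%) and 3 were lower (17.6%), and the median was -0.06 (0.07 with centred arrays). Of all genes, 7.24% were higher and 6.43% lower. Gfap, the intermediate filament of astrocytes, lay at 4.35 to 9.17 (median 5.05) in the lines and at 6.20 to 11.49 (median 8.77) in the gliomas. Lines 47 (7.80) and 65 (9.17) lay well inside the range of the gliomas, and the difference was -2.79 (standard error 0.62, adjusted p = 0.00198). The water channel Aqp4 (-3.48) and the calcium-binding protein S100b (-1.81) were lower as well. The glial transcription factor Sox9 was higher by 1.75 (adjusted p = 0.00523) and the glutamate transporter Slc1a3, which is also found in radial glia, by 1.07 (adjusted p = 0.0114, 0.00227 to 0.0747 over 12 other settings). None of 11 genes of choroid plexus and ependyma passed in limma, 0 of them at an unadjusted p under 0.05. In each group, 10 of the 11 genes had a mean no higher than the array medians, so that a difference could hardly be seen.

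**Figure D2:**
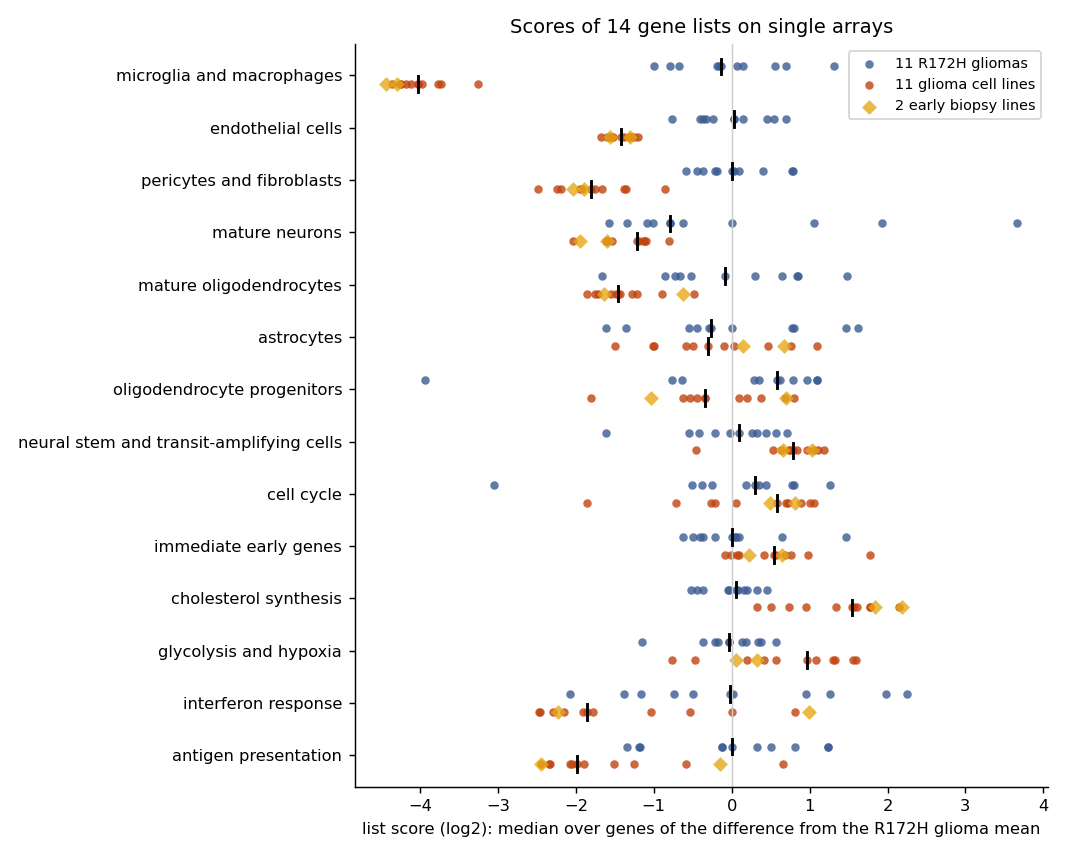
Score of 14 gene lists on single arrays (log2, horizontal axis), with 11 R172H gliomas in blue, 11 cell lines in red, 2 early biopsy lines as diamonds and black bars at the group medians. The lines lie below every glioma for microglia, endothelial cells and pericytes, and 10 of 11 lie above every glioma for cholesterol synthesis.

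Progenitor markers were compared between the lines and the gliomas, which are bulk tissue with other cells beside tumor cells. A larger share of progenitor-like cells and more RNA per cell cannot be told apart here. Among the 19 measured markers of neural stem cells and transit-amplifying cells, 3 were higher (15.8%) and none was lower, with a median of 0.56. The share of higher genes over all genes was 7.24%, and 7 markers were higher with centred arrays. Sox2, a transcription factor of neural stem cells, lay at 11.78 to 12.83 (median 12.09) in the lines and at 6.20 to 11.79 (median 11.37) in the gliomas. All lines but line 65 (11.78) lay above all gliomas, and glioma 50 was alone at 6.20 while the other gliomas began at 11.11. The difference was 1.24 (standard error 0.42, adjusted p = 0.0406, 0.01 to 0.111 over 12 other settings). Sox21, a partner factor of neural progenitors, was higher by 1.67 (standard error 0.36, adjusted p = 0.00152). The count of 3 ran from 2 to 5 when any 1 array was left out, and it was 5 without glioma 54, 60 or 62.

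Egfr, the receptor of the EGF in the medium, lay at 3.52 to 11.03 (median 8.95) in the lines and at 3.65 to 8.75 (median 5.26) in the gliomas. Its spread was wide in both groups. Lines 47, 49, 51 and 59 lay at 10.09 to 11.03, line 53 was at 3.52, and gliomas 56, 58 and 60 lay at 8.07 to 8.75. The difference was 2.69 (standard error 0.69, adjusted p = 0.00691, 0.00183 to 0.058 over 12 other settings), a 6.43-fold higher signal. Line 53 was also the lowest line for Sox21 (8.19) and Slc1a3 (8.80) and the highest for Pdgfra (13.81).

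Of 16 genes of oligodendrocyte progenitors, 1 was lower (6.25%, where 6.43% of all genes were lower) and none was higher (median -0.62). This was Matn4, a matrix protein (-3.49, adjusted p = 0.00114). The count was 4 without glioma 50, and 2 without line 53, 57 or 65 or glioma 54. Olig2, the lineage factor of oligodendrocyte progenitors, lay at 10.51 to 11.49 (median 10.99) in the lines and at 3.94 to 11.21 (median 10.81) in the gliomas. The low gliomas were 50 (3.94) and 58 (8.85), the other gliomas overlapped with the lines, and the difference of 0.88 did not pass (95% interval -0.31 to 2.07, adjusted p = 0.337). Pdgfra, the PDGF receptor of these progenitors, lay at 9.60 to 13.81 (median 11.04) in the lines and at 8.09 to 13.81 (median 12.27) in the gliomas. The difference of -0.96 did not pass (95% interval -1.94 to 0.01, adjusted p = 0.184), and its adjusted p ran from 0.0103 to 0.325 over 12 other settings. None of 15 neuroblast genes passed in limma (median -0.47), with 3 lower at an unadjusted p under 0.05, while 1 passed without line 47, glioma 52 or line 53 and 2 without glioma 64.

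Proliferation genes gave no difference that passed. None of 38 cell cycle genes did in limma, with a median of 0.13 and single differences from -0.92 to 0.80. The cyclin gene Ccne2 (-0.92) was the 1 gene at an unadjusted p under 0.05, and the methods' t-test called 0 of them higher before or after adjustment. Mki67, which encodes the Ki67 antigen of dividing cells, lay at 7.50 to 11.32 (median 10.44) in the lines and at 6.42 to 11.02 (median 9.94) in the gliomas. Line 51 and glioma 58 were the lowest of their groups, and the difference of 0.27 had a 95% interval from -0.69 to 1.22. The cell cycle score ran from -1.86 in line 51 to 1.05 in line 55 and from -3.05 in glioma 58 to 1.26 in glioma 50. Of 24 genes of ribosome biogenesis and Myc targets, none passed in limma (median 0.11), 4 were higher at an unadjusted p under 0.05, 1 passed without glioma 50, 2 without line 51 and 4 with centred arrays, and Myc itself was 0.40 (95% interval -0.40 to 1.21). The cyclin genes Ccnd1 (-0.11) and Ccnd2 (0.92), the kinase gene Cdk4 (0.34) and the histone methyltransferase Ezh2 (0.39) did not pass. Cdkn2a, which encodes p16Ink4a and p19Arf, was chosen after its values were seen. It lay at 11.66 to 12.46 in the lines and at 7.08 to 12.35 in the gliomas, with a difference of 0.96 that did not pass (adjusted p = 0.102, 0.0398 to 0.264 over 12 other settings).

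Immediate early genes, which encode transcription factors and regulators induced within minutes of stimulation, were higher for 5 of 19 members and lower for none (median 0.71). These 5 were 26.3% of the list, where 7.24% of all genes were higher, and 8 were higher with centred arrays. Btg2 (1.69, adjusted p = 0.000224), an antiproliferative gene that p53 also induces, Klf4 (1.55), Fos (1.53), Ier2 (1.37) and Jun (0.71) passed. Fos, a subunit of the factor AP-1, lay at 11.03 to 13.65 (median 12.36) in the lines and at 7.15 to 12.12 (median 11.32) in the gliomas. Only line 47 (11.03) lay below the highest glioma, and line 51 was the brightest. Of 17 genes of MAPK output, Egr1 was higher (1.56, adjusted p = 0.0316), and the median of the list was 0.48. This is 5.88% of the list, below the 7.24% of all genes that were higher. Egr1 no longer passed without glioma 50, line 51, glioma 60 or glioma 64, and 3 genes were higher with centred arrays. The feedback phosphatase Dusp6 (0.61) and the factor Etv5 (0.97) did not pass.

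Of 20 p53 targets, Btg2 was higher and Pmaip1, the proapoptotic gene of Noxa, was lower (-1.35, adjusted p = 0.0439), with a median of 0.03 (-0.04 with cyclic loess) and 2 higher genes without glioma 58 or with centred arrays. These shares, 5% in each direction, were below those of all genes (7.24% higher, 6.43% lower). Of 21 genes of the PI3K-Akt-mTOR pathway, the transcription factor Foxo3 was higher (0.61, adjusted p = 0.0452), with a median of -0.02 (0.11 with centred arrays). This is 4.76% of the list, below the share of all genes, and the counts were 3 higher with centred arrays and 0 higher and 1 lower with cyclic loess. No gene of the list passed as higher without glioma 46, 48, 54, 56, 62, 64 or 67. The same held without line 47, 49, 51, 53, 57, 59 or 61. Without line 68, 2 passed as higher, and without glioma 58, 3 did. Genes of the list that passed as lower were not counted with single arrays left out. Rictor, a subunit of mTORC2, did not pass at -0.42 (95% interval -0.73 to -0.12, adjusted p = 0.0524). Its adjusted p ran from 0.0219 to 0.986 over 12 other settings, and it passed as lower with array weights, with cyclic loess and without glioma 50. The neurofibromin gene Nf1 (-0.23) and the receptor gene Met (-0.79, 95% interval -2.82 to 1.24) did not pass either.

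**Figure D3:**
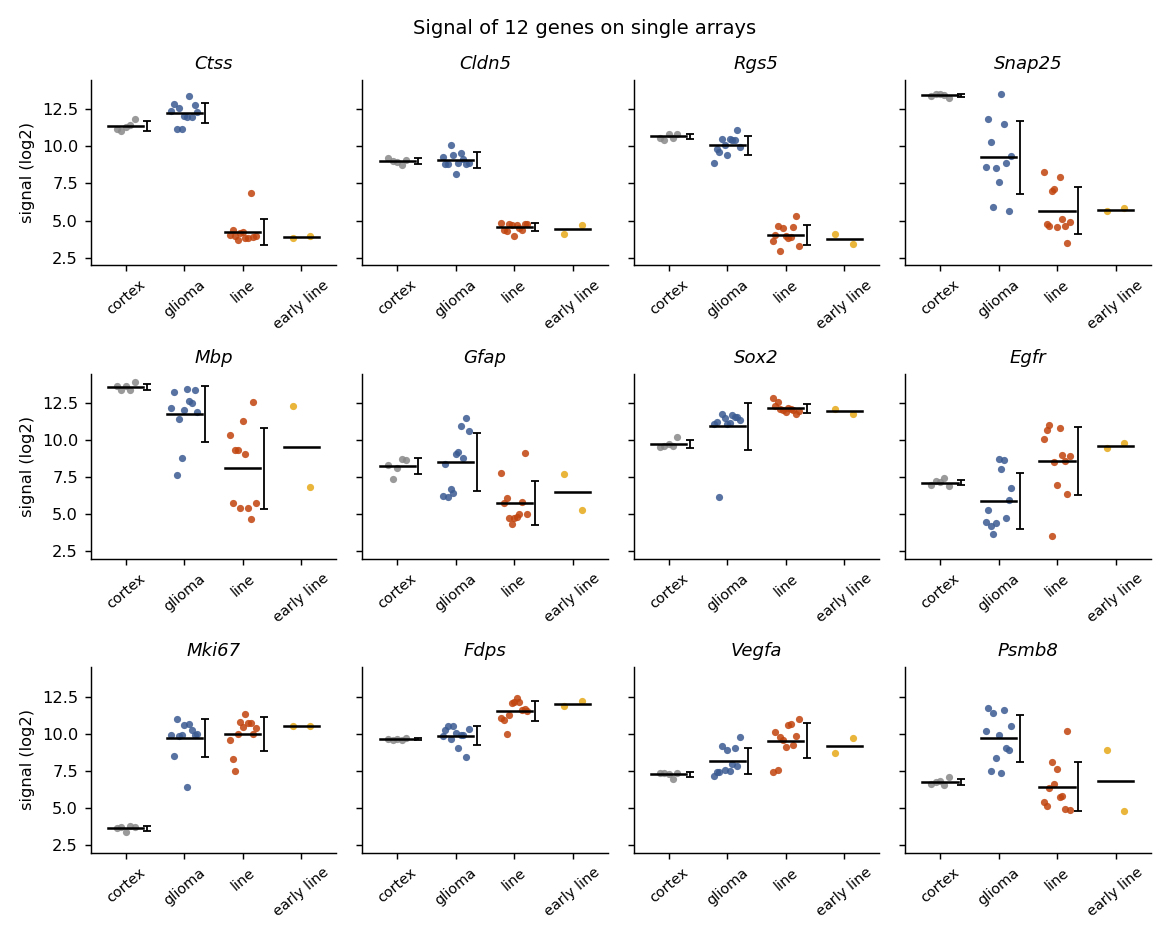
Log2 signal of 12 genes on single arrays (vertical axis), for normal cortex, R172H gliomas, lines and early biopsy lines, with horizontal bars at the group means and error bars of 1 SD. Gliomas and lines have no overlap for Ctss, Cldn5 and Rgs5, whereas those of Mki67 overlap over most of their range.

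Genes of cholesterol synthesis were higher in the lines at all but 1 of the measured steps. Of 19 measured genes, 18 were higher and none was lower, with a median of 1.34, where 7.24% of all genes were higher and their median was 0.05. Counts of 17 or 18 were found when any 1 array was left out. The early steps lead from acetyl-CoA to farnesyl diphosphate. Hmgcs1, which makes HMG-CoA, lay at 11.98 to 13.71 (median 12.59) in the lines and at 10.96 to 12.19 (median 11.56) in the gliomas. Line 53 (11.98) was the only line below the brightest glioma, with a difference of 1.11 (standard error 0.21, adjusted p = 0.000218). The mevalonate enzymes Mvk (0.90), Pmvk (1.04), Mvd (1.55) and Idi1 (1.07) passed as well.

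Fdps, farnesyl diphosphate synthase, lay at 10.00 to 12.40 (median 11.63) in the lines and at 8.43 to 10.57 (median 9.96) in the gliomas. Line 51 was the single line inside the range of the gliomas. The difference was 1.66 (standard error 0.23, adjusted p = 1.13e-06), a 3.17-fold higher signal. The steps from squalene onward followed. Fdft1 (1.22), which makes squalene, Sqle (1.26), the squalene epoxidase, and Lss (1.64), which closes the sterol ring, were higher, as were Cyp51 (1.54), Msmo1 (1.61), Nsdhl (1.54), Hsd17b7 (0.68) and Sc5d (0.96), which trim and rearrange the sterol. Tm7sf2, a sterol reductase, changed most in the list. It lay at 7.38 to 9.99 (median 8.37) in the lines and at 4.68 to 7.47 (median 6.41) in the gliomas, with only line 53 (7.38) below the brightest glioma, glioma 54. Its difference was 2.20 (standard error 0.27, adjusted p = 1.54e-07). Hsd17b7 was near the threshold (adjusted p = 0.0476, 0.00932 to 0.101 over 12 other settings).

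Dhcr7, which makes cholesterol in the last step, was the gene that did not pass. It lay at 8.76 to 13.23 (median 10.76) in the lines and at 7.80 to 12.43 (median 10.02) in the gliomas. Gliomas 62 and 64 (12 and 12.43) were brighter than all lines but line 65, and the difference was 0.72 (95% interval -0.36 to 1.80). The regulators rose with the enzymes. Srebf2, which encodes SREBP2, was higher by 1.34 (adjusted p = 6.66e-06), Insig1, which retains SREBP in the endoplasmic reticulum, by 1.35 and the sterol carrier Stard4 by 1.61. Among genes chosen after their values were seen, the fatty acid desaturases Scd1 (1.69) and Fads1 (1.35), the sterol-regulated membrane protein Tmem97 (1.27) and the lipoprotein receptor Scarb1 (1.54) were higher, and Abcg1, a sterol exporter that is abundant in macrophages, was lower (-2.66). The acetyl-CoA synthetase Acss2, which supplies lipid synthesis, was among the 17 genes with all lines above all gliomas (1.81).

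Single lines differed in these genes. The cholesterol score was lowest in line 51 (0.32) and line 47 (0.51) and highest in line 59 (2.15), against -0.52 to 0.45 in the gliomas, so that 10 of 11 lines lay above every glioma. The early biopsy lines 66 and 69 scored 1.84 and 2.18. Mean signals in normal cortex were 8.68 for Nsdhl and 9.65 for Fdps, against 8.80 and 10.08 in the p53-null gliomas.

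**Figure D4:**
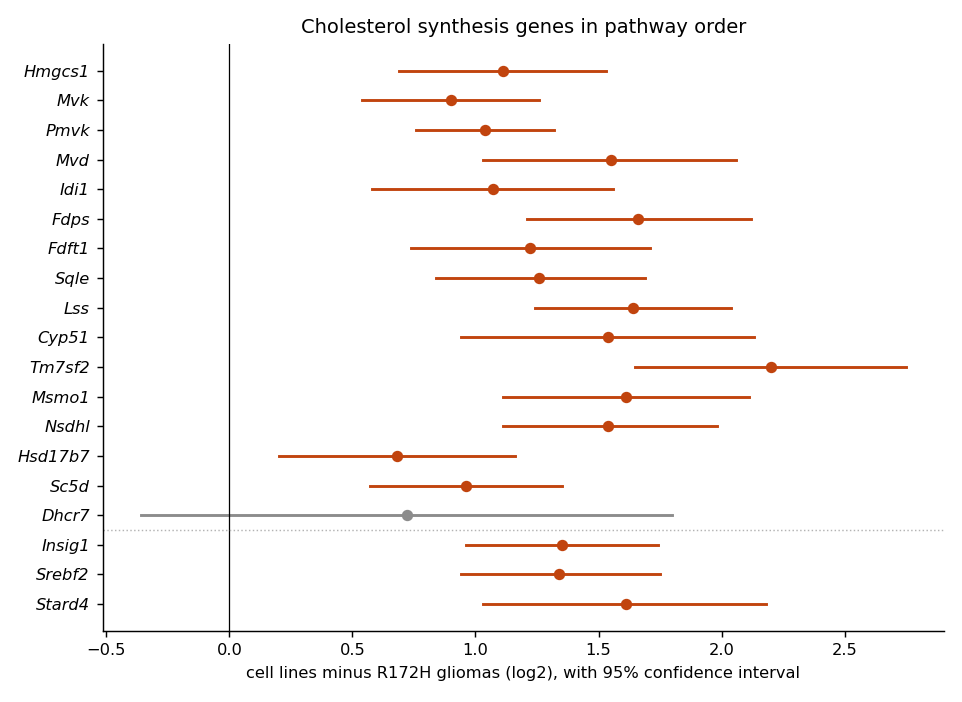
Difference between lines and gliomas (log2, horizontal axis) for 19 genes of cholesterol synthesis, with 16 enzymes in pathway order and bars for 95% intervals from limma. The interval of Dhcr7 is the only one that includes 0.

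Promoters of the list were searched for the sterol regulatory element, to which SREBP binds, as the letters TCACNCCAC on either strand in the 250 bases before and 50 bases after each start site (RefSeq, GRCm38.p6). It was found in 1 of 15 promoters of measured members (6.67%) and in 1.44% of 27025 promoters of all genes. The match lay in the promoter of Hmgcs1, 137 bases before the start. It is shown because Hmgcs1 opens the pathway, as 100 bases of the plus strand (GRCm38.p6, chr13:119690168-119690267) with the match in capitals.
Hmgcs1: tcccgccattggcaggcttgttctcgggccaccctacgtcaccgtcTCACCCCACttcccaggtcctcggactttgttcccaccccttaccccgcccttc
The other 14 promoters do not hold these letters in this window, which says nothing of binding elsewhere or of other forms of the element.

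Glycolysis and hypoxia genes were higher for 9 of 23 members (39.1%) and lower for 1 (4.35%), with a median of 0.72. Of all genes, 7.24% were higher and 6.43% lower. Pdk1, which closes the entry of pyruvate to mitochondria, lay at 7.99 to 10.76 (median 9.51) in the lines and at 6.69 to 9.03 (median 7.81) in the gliomas. Lines 47 and 53 lay within the gliomas, and the difference was 1.57 (standard error 0.36, adjusted p = 0.00281). The oxygen sensor Egln3 (1.42), the collagen hydroxylase P4ha1 (1.38), the angiogenic factor Vegfa (1.37), the glucose transporter Slc2a3 (0.85) and the glycolytic enzymes Pfkl (1.01), Aldoa (0.71), Pgam1 (0.67) and Pgk1 (0.51) passed. Lox, a collagen crosslinking enzyme, was lower (-1.50). The count of higher genes was 5 without line 55, 4 without glioma 64, 3 without line 59, 61 or 68, and 4 with cyclic loess normalization, while it was 13 without line 51 and 14 with centred arrays.

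The lines fell into no common level for these genes. Vegfa was 7.45 in line 47 and 7.57 in line 51 and 9.13 to 11 in the other lines, against 7.19 to 9.81 in the gliomas. The glycolysis and hypoxia score ran from -0.77 in line 51 to 1.59 in line 61, above every glioma in 6 of 11 lines, and it was 0.06 and 0.33 in early biopsy lines 66 and 69. Ero1a (1.69), Plod2 (1.47), Ak4 (1.31) and P4ha2 (1.73), which hypoxia is known to induce, were chosen after their values were seen and were higher.

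In the other metabolic lists few members passed, where 7.24% of all genes were higher and 6.43% lower. Of 15 genes of serine and one-carbon metabolism, the glycine decarboxylase Gldc (1.20) and the folate enzyme Mthfd1 (0.41) were higher (median 0.29), 13.3% of the list. The count was 1 without glioma 46, 48, 58 or 67 or line 47, 51 or 59 and with cyclic loess, which is near the share of all genes, and 4 with centred arrays. Of 20 genes of the ATF4 and amino acid response, Stc2 (1.24), Ddit4 (1.03) and Vldlr (0.88) were higher and the arginine transporter Slc7a3 was lower (-1.94), with a median of 0.33 and 5 higher with centred arrays. Of 16 antioxidant genes, the glutathione transferase Gstm1 (1.62), the quinone reductase Nqo1 (0.77), catalase Cat (0.61) and superoxide dismutase Sod2 (0.38) were higher and Osgin1 was lower (-0.46), with a median of 0.11. The 4 higher genes became 1 without line 49 and 2 without gliomas 50, 52, 56, 58, 62 or 64 or lines 51, 55, 59, 61 or 68, each left out alone, and 6 with centred arrays. Of 16 glucocorticoid response genes, 4 were lower and none was higher (median -0.45). These were Lcn2 (-2.91), a siderophore-binding protein also made in inflammation, Sult1a1 (-1.84), Angptl4 (-1.41) and the receptor chaperone Fkbp5 (-0.81). Angptl4 did not pass in every setting, as its adjusted p ran from 0.0085 to 0.476 over the other settings. The count of lower genes in this list was 3 or 4 when any 1 array was left out.

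Idh1, cytosolic isocitrate dehydrogenase, lay at 11.13 to 12 (median 11.81) in the lines and at 9.77 to 11.14 (median 10.86) in the gliomas. Only line 53 (11.13) lay below the brightest glioma (11.14), and the difference was 1.07 (standard error 0.16, adjusted p = 9.1e-06). The mitochondrial Idh2 was higher by 0.86 (adjusted p = 0.00794). The histone gene H3f3a (0.06) and the radial glia gene Fabp7 (0.40) did not pass. Trp53 was not analysed here.

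Interferon response and antigen presentation genes were lower in the lines as a group, with higher signals in a few lines. Of 18 interferon response genes, 6 were lower and none was higher (median -1.52), and of 15 genes of antigen presentation, 9 were lower and none was higher (median -1.61), where 6.43% of all genes were lower. Oas1a, an antiviral synthetase that activates RNase L, lay at 5.16 to 7.54 (median 5.95) in the lines and at 6.62 to 10.81 (median 8.19) in the gliomas. Line 65 was the only line above the dimmest glioma, and the difference was -2.27 (standard error 0.46, adjusted p = 0.000586). Xaf1 (-2.65), Rtp4 (-2.36), Ifit3 (-2.12), Oasl2 (-2.01) and Ifit2 (-1.63) were also lower. Ifit3 lay at 4.81 to 9.0 (median 5.90) in the lines and at 5.18 to 11.07 (median 8.35) in the gliomas, with lines 53 (8.50) and 65 (9.0) among the brighter gliomas and glioma 50 (5.18) among the dim lines. The count of 6 was 10 without glioma 50 or line 65.

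Psmb8, a subunit of the immunoproteasome that cuts peptides for MHC class I, lay at 4.88 to 10.22 (median 5.81) in the lines and at 7.35 to 11.73 (median 9.94) in the gliomas. Line 65 (10.22) lay above 6 gliomas, lines 53 (8.14) and 57 (7.65) lay above the dimmest gliomas, and the other lines lay below all of them. The difference was -3.26 (standard error 0.59, adjusted p = 0.000167). Psmb9 (-1.92), the class I activator Nlrc5 (-2.05) and the class I heavy chains H2-K1 (-1.63) and H2-D1 (-1.60) were lower. The light chain B2m (-0.50, 95% interval -1.02 to 0.02) and the peptide transporter Tap1 (-1.38, 95% interval -2.42 to -0.33, adjusted p = 0.0697) did not pass. The class II genes H2-Aa (-3.22), H2-Ab1 (-1.91) and H2-Eb1 (-1.61) and the invariant chain Cd74 (-2.33), which antigen-presenting cells express, were lower. H2-K1 and H2-D1 are close copies, so that their probe sets may read both.

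The interferon score ran from -2.47 in line 49 to 0.81 in line 65 and from -2.08 in glioma 50 to 2.25 in glioma 60. Lines 65 (0.81), 61 (0.00), 55 (-0.54) and 53 (-1.03) were the highest lines. Usp18, a protease that removes ISG15, was 11.54 in line 65, 10.54 in line 61, 9.50 in line 55 and 8.02 in line 53, and 4.68 to 7.38 in the other lines, against 5.19 to 11.97 in the gliomas. Early biopsy line 66 was at 11.76. The difference of Usp18 between groups, -2.01, did not pass (adjusted p = 0.0955). Not all interferon genes followed in each of these lines. Irf7, a factor of the type I response, was 9.57 in line 61 and 9.43 in line 65 but 6.84 and 6.32 in lines 55 and 53, and Psmb8 was 5.81 in line 61. The antigen presentation score was above the dimmest glioma in 3 lines, and it was 0.66 in line 65. The microglia and macrophage genes, 22 of 22 lower, moved with both lists between the groups, and their part in the result was not tested. Line 65 had a microglia and macrophage score of -4.25, within the range of the lines, with Ctss at 3.88 (median of the lines 3.97). Its Csf1r, at 4.90 (median of the lines 4.36), was above that of every line but line 63 (5.14).

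**Figure D5:**
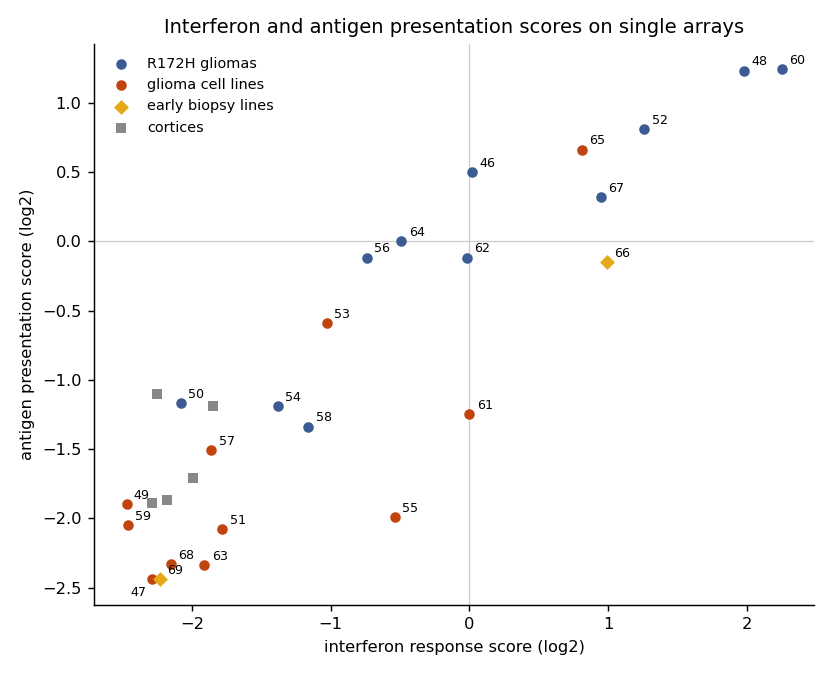
Antigen presentation score (log2, vertical axis) against interferon response score (log2, horizontal axis), 1 point for each of 11 lines, 11 R172H gliomas and 2 early biopsy lines, with array numbers. Line 65 lies among the gliomas, and glioma 50 lies among the lines on the interferon axis.

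Promoters of the interferon list were searched for the interferon-stimulated response element as GAAA, NN and GAAA in 1 run on either strand, in the same windows as above. It was present in 11 of 15 promoters of measured members (73.3%) and in 3.99% of 27025 promoters. Windows of 100 bases are shown for Oas1a and Ifit3, which were lower in the lines, and for Ifit1 (-1.96, adjusted p = 0.0617), which did not pass. Each window is written 5′ to 3′ along the strand of its gene with the matches in capitals, where TTTC first marks a match on the opposite strand. The regions in GRCm38.p6 are chr5:120907526-120907625 (minus strand), chr19:34583362-34583461 (plus strand) and chr19:34640759-34640858 (plus strand).
Oas1a: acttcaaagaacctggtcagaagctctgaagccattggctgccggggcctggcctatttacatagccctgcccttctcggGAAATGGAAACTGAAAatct
Ifit3: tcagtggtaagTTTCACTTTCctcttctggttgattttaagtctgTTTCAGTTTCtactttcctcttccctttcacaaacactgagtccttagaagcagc
Ifit1: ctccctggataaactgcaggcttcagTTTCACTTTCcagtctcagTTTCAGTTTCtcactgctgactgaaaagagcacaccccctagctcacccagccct
Each holds 2 matches. In Oas1a they overlap and begin 20 and 14 bases before the start, in Ifit3 they begin 156 and 122 bases before it, and in Ifit1 104 and 85 bases. For the other lists, PU.1, the factor of myeloid cells, was searched as GAGGAAGT and was present in 2 of 15 microglia and macrophage promoters (13.3%, 3.69% of all promoters), those of Ctss and C1qc. E2F, the factor of the cell cycle, was searched as TTTGGCGC, TTTCCCGC or TTTGGCGG and was present in 7 of 32 cell cycle promoters (21.9%, 2.39% of all promoters).

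Some matrix and mesenchymal genes were lower in the lines. Of 23 genes of the extracellular matrix, 5 were lower (21.7%) and 2 were higher (8.7%), with a median of -0.14. Of all genes, 6.43% were lower and 7.24% were higher, so the higher share was near that of all genes. The fibroblast matrix genes Postn (-2.46), Bgn (-1.50), Col6a2 (-1.38) and Nid1 (-1.37) and the gelatinase Mmp2 (-1.60) were lower, whereas the laminin chains Lama5 (1.28, adjusted p = 0.000261) and Lamc1 (1.07, adjusted p = 0.00325) were higher. The lower genes depended on single arrays, with none left without glioma 52, 60 or 62 or line 68, 1 without line 47, 53, 59 or 61, 2 without glioma 48 or 67 or line 51, 55 or 57, and 3 without glioma 46 or 64 or line 49. Pericyte and fibroblast genes, 8 of 16 lower, moved with them, and their part was not tested.

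Of 20 mesenchymal glioma markers, 5 were lower (25%, against 6.43% of all genes) and none was higher (median -0.19). Lgals3, the galectin of macrophages and reactive glia, lay at 3.78 to 6.00 (median 5.09) in the lines and at 6.76 to 10.73 (median 9.84) in the gliomas. No line reached the dimmest glioma, glioma 58, and the difference was -4.65 (standard error 0.38, adjusted p = 8.54e-12). S100a6 (-3.57), the matrix adhesion protein Tgfbi (-3.19), S100a4 (-2.96) and the inflammasome protease Casp1 (-1.51) were lower. The hyaluronan receptor Cd44 (0.84, 95% interval -0.23 to 1.92), Vim (0.83, adjusted p = 0.0745) and Anxa1 (-0.68, 95% interval -1.90 to 0.53) did not pass. Microglia and macrophage genes moved with the lower members here too.

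The 10 genes with the most negative measured differences among those whose groups did not overlap were Ctss, Lyz1 (-7.83), C1qb, the proteoglycan Srgn of blood cells (-7.01), C1qa, Tyrobp, Csf1r, C1qc, Rgs5 and the macrophage gene Mpeg1 (-5.91). In all 10 the mean of the lines lay below every array median, so that these differences are lower bounds and their order is not firm. Of these, 9 are genes of blood-derived or microglial cells and Rgs5 is a pericyte gene. The signals of Lyz1 and its close copy Lyz2 may not be fully separated by their probes. Lyz1 rests on a probe set with the suffix _x_at, and without such sets its difference was -0.18 (adjusted p = 0.145). The 10 highest were smaller and of mixed function. Trappc6a, a subunit of a vesicle tethering complex, lay at 9.10 to 9.69 (median 9.50) in the lines and at 7.11 to 8.80 (median 7.51) in the gliomas. Its difference of 1.90 (standard error 0.17, adjusted p = 5.57e-11) was the largest of the 10. Acss2 (1.81), the membrane protein Stom (1.70), the magnesium transporter Magt1 (1.47), the quinone reductase Cryz (1.33), the glucose-6-phosphate transporter Slc37a4 (1.18), the DNA glycosylase Nthl1 (1.10), the peptidase Scpep1 (1.03), the leukotriene hydrolase Lta4h (1.02) and the Wnt pathway repressor Tcf7l1 (0.99) followed.

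By position, the median over the genes of a chromosome ran from 0.001 on chromosome 16 to 0.10 on chromosome 12, around the median of 0.05 over all genes. The share of higher genes was lowest on chromosome 16 (3.71%) and highest on chromosome 3 (11.2%), and the share of lower genes was lowest on chromosome 9 (4.79%) and highest on chromosome 14 (9.20%).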

How the data were processed

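RNA of 40 samples was hybridised to Affymetrix mouse genome arrays, 1 array for each sample. The authors corrected the background, normalized by quantiles and summarized probes by robust multi-array average. The deposited values are log2 signals. Their log base was not given in the sources used here and was read from the range of 2.00 to 14.47, with array medians of 5.24 to 5.47.

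Groups followed sample titles and genotypes. Of 45101 probe sets, 64 controls, 932 with several symbols and 9160 without a symbol in the annotation used were left out. Of the 34945 with 1 symbol, 34741 matched the RefSeq table. For each of 18193 genes, the probe set that was brightest on average over 40 arrays was used. The functions lmFit, contrasts.fit and eBayes of limma 3.58.1 (R 4.3.3) fitted 5 groups, with Benjamini-Hochberg adjustment, at a threshold of 0.05. Tables were made in Python 3.11.15 with pandas 2.3.3. No test of a list was run, and some members of the lists are not reported here. The model was tested on simulated data of 18193 genes for this comparison, with 200 of them changed, 50 at each size. It found 44%, 70%, 80% and 96% of log2 changes of 0.5, 1, 2 and 3, and 3.3% of its calls were false. Whether these rates hold for the measured arrays, where 2487 genes passed, was not tested. The number of arrays limits the precision, and quantile normalization hides a shift of most genes in 1 direction.

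Named genes were the 10 largest increases and decreases among genes that passed without overlap of groups and with the higher group above the median of all genes (6.88), members of 30 lists, the 5 most variable genes over lines and the 5 brightest genes among those that did not pass, Xist and Y-linked genes, and genes the study names. The comparison and the lists were chosen with earlier results of these data known. Motifs were counted in RefSeq promoters of GRCm38.p6. Other settings averaged all probe sets of a gene, left out those with the suffix _x_at or _s_at, or used a dim filter (9097 genes kept), only the 22 arrays, array weights, trend and robust moderation, cyclic loess, median centring, the methods' t-test with and without adjustment, a 2-fold threshold, gliomas 50 and 58 left out, and each array left out.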

Additional observations from a re-analysis of the deposited data

How the results depend on the processing

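No paired analysis was made, because the labels do not say which line came from which tumor. Without 1 array at a time, 1048 to 1446 genes were higher (1317 in all arrays) and 995 to 1289 lower (1170), with the extremes for the higher genes without line 49 and glioma 50. Members of all lists were 37 to 51 higher (51) and 96 to 119 lower (110). By list, the lower members were 22 to 22 for microglia and macrophages, 15 to 15 for endothelial cells, 8 to 10 for pericytes and fibroblasts, 2 to 7 for neurons, 5 to 8 for oligodendrocytes, 3 to 3 for astrocytes, 4 to 10 for interferon response and 9 to 11 for antigen presentation. The higher members were 2 to 5 for neural stem cells, 0 to 0 for cell cycle, 5 to 6 for immediate early genes, 17 to 18 for cholesterol synthesis and 3 to 13 for glycolysis and hypoxia.

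A filter on dim genes kept those with a mean log2 signal over all 40 arrays of at least 6.88. It left 818 higher and 543 lower genes and 49 lower list members. Among these members were 13 for microglia (all 13 kept), 2 for endothelial cells (of 3 kept) and 1 for pericytes (of 5 kept). Centring gave 3851 higher genes, 80 higher members, 7 for neural stem cells, 8 for immediate early genes and 14 for glycolysis. The methods' t-test without adjustment called 2683 genes higher and 1993 lower, with 14 for neurons, 11 for oligodendrocytes, 8 for neural stem cells and 10 for interferon response, and after adjustment 930 higher and 909 lower genes, 33 higher members, 3 for neurons and 3 for glycolysis. A 2-fold threshold left 225 higher genes and 5 for glycolysis. Glycolysis gave 5 with only the 22 arrays and 4 with cyclic loess. Array weights gave 11 for interferon response. Without glioma 50, interferon response gave 10, without glioma 58 neurons gave 2, and without both 10 and 1. The medians of chromosomes moved beyond the spread of lines for chromosome 1 (0.072 to 0.018 with cyclic loess and 0.131 with the dim filter), 3 (0.067 to 0.148) and 6 (0.055 to 0.124, both dim filter), and 56 of 60 values did not. The cause of these moves was not tested. Of 607 single genes under 13 settings, 1 that passed took the opposite sign. Sign changes of genes that passed in neither setting were not counted. Laptm5, a lysosomal protein of blood cells, was 0.10 (adjusted p = 0.58) from its remaining probe set when those ending in _x_at or _s_at were left out.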

Other observations

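Several growth factor and Wnt pathway genes, all chosen after their values were seen, were higher in the lines. The Wnt receptors Fzd2 (1.39), Fzd5 (1.4), Fzd7 (1.45) and Fzd9 (1.59), the Wnt secretion factor Wls (1.33) and the ligand Wnt5a (1.33, adjusted p = 0.0366 in limma, 0.00993 to 0.0643 over 12 other settings) passed. The receptor genes Erbb2 (1.27) and Notch3 (1.51) and Lrig1 (1.76), which restrains EGF receptors, passed as well. Over 12 other settings, the adjusted p reached 0.071 for Fzd9 and 0.059 for Lrig1. The share of all Wnt and growth factor genes that passed was not counted. The highest differences of all genes were those of Selenbp1, a selenium-binding protein (2.96), and Pipox, which degrades pipecolate and sarcosine (2.94). Selenbp1 lay at 8.25 to 11.26 in the lines and at 4.63 to 8.30 in the gliomas, so that only its lowest line touched the gliomas. After Egfr (2.69) came the basement membrane collagen Col4a5 (2.65) and the Hippo pathway factor Tead2 (2.58). The imprinted noncoding RNAs Rian (-4.08) and Meg3 (-2.63), which lie in 1 imprinted domain, were lower, and all lines lay below all gliomas for Rian (3.52 to 7.88 against 7.99 to 11.87).

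Among the genes that did not pass, the largest spread over the lines was found for Igf2, Xist, Gm364, Gja1 and Met. Igf2, an imprinted fetal growth factor, lay at 4.48 to 14.16 in the lines and at 5.63 to 14.02 in the gliomas. Lines 49, 61, 63, 65 and 68 were at 13.79 to 14.16, and lines 55 and 59 at 4.48 and 4.98. Met was 12.91 and 12.96 in lines 47 and 55 and 13.21 and 11.36 in gliomas 54 and 46, and 3.40 to 9.02 in the other arrays of both groups. Gm364, a predicted gene of chromosome X, lay at 3.02 to 11.74 in the lines, and Gja1, a gap junction protein of astrocytes, at 3.55 to 11.13. The brightest genes that did not pass were Tpt1 (0.00, 95% interval -0.09 to 0.08), Eef1a1 (0.08), Rpl37a (0.03), Rplp2 (0.01) and Tmsb10 (0.05).

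Xist, the RNA of the inactive X chromosome, was 5.15 to 5.64 in lines 53, 55, 59, 61 and 65. Among these, the Y-linked gene Eif2s3y was 7.93 in line 53 and 9.60 in line 59 but 3.49, 3.66 and 3.20 in lines 55, 61 and 65, where Kdm5d (2.87, 2.90 and 2.94) and Uty (3.26, 3.09 and 3.41) were low as well. In the gliomas, Xist was 5.09 to 5.67 in arrays 52, 54, 58 and 60, with Eif2s3y at 8.70, 5.13, 8.65 and 6.54. Glioma 64 had an intermediate Xist signal (8.32) with Eif2s3y at 5.06. Early biopsy line 66 had Xist at 5.47 and Eif2s3y at 6.36.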
